A study of Marchantia polymorpha and Arabidopsis thaliana with 40 samples.

Results

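The regions described here were 238 of the 40873 accessible regions of Marchantia polymorpha in which heat lowered the ATAC-seq signal of the hsfa1 knockout and of the hsfa1/hsfb1 double knockout (dko) while the wild type, Tak-1, lost less signal or none. They were chosen from the measured values. Counts were scaled to counts per 1000000 of the library total (CPM), and the heat change of a genotype was the log2 ratio of its mean heated to its mean control CPM, each with 0.5 added, minus the median of that ratio over all regions. A region was kept where this centred change was at or below -0.8 in hsfa1 and in dko and at or above -0.3 in Tak-1. The signal of these 238 regions in Tak-1, hsfa1 and dko is therefore given as a description without a test, and tests are given for hsfb1 and for a separate set of libraries that the choice did not use.

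Heat shock transcription factors bind heat shock elements in DNA and induce chaperone genes when proteins misfold. Class A members carry an activation domain, and those of the HSFA1 type start the heat response in Arabidopsis thaliana, whereas class B members lack that domain. ATAC-seq reads open chromatin through the Tn5 transposase, which inserts adapters into DNA not covered by nucleosomes, so a region with fewer counts at equal depth was cut less often.

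The samples were nuclei sorted by flow cytometry from whole gemmalings, young plants raised from asexual propagules of this liverwort, 7 days old and grown in continuous light. Tak-1 is the male wild type accession. Each mutant was 1 line by the labels, a1-8 for the hsfa1 knockout, b1-70 for the hsfb1 knockout and a1,b1-62 for the double knockout. Each genotype was sampled in 2 libraries at 22 °C and 2 libraries after 1 h at 37 °C. A second set of 16 libraries, with another batch label, held the same 4 genotypes after 2 h with 50 µM abscisic acid (ABA) or with a 20% ethanol mock. In that set the sample titles and the column names of the table state opposite treatments, so genotypes were compared over both treatments together. The Arabidopsis libraries of the study were not used here.

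Library totals ran from 21.2 to 71.2 M counts in the heat set and from 32.7 to 47 M in the ABA set, and replicate libraries of a group correlated across regions with Spearman's rho of 0.986 to 0.995 and 0.981 to 0.993. The 238 regions had mean counts of 48.4 to 635 per library, with a median of 135. Separate cultures are not stated in the labels for replicates, and the p-values here thus reflect library-to-library spread, which may be technical. Some libraries stood apart. With the regions in 10 equal classes by mean signal, Tak-1 control replicate 2 had 47.9% of its counts in the highest class and 3.23% in the 3 lowest, against 39.6% to 42.8% and 4.3% to 5.91% in the other 15 libraries of the heat set. In the dko controls a fraction of 0.536 and 0.564 of the region counts were even numbers, against 0.497 to 0.508 elsewhere in the set. In the 16 libraries of the ABA set this fraction was 0.531 to 0.633. Results without Tak-1 control replicate 2 are given below, and the part of the even counts was not tested. The genome build was not given in the sources used here, so regions are named by chromosome, start and end as the table gives them, with no gene, exon, intron or UTR assigned.

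**Figure D1:**
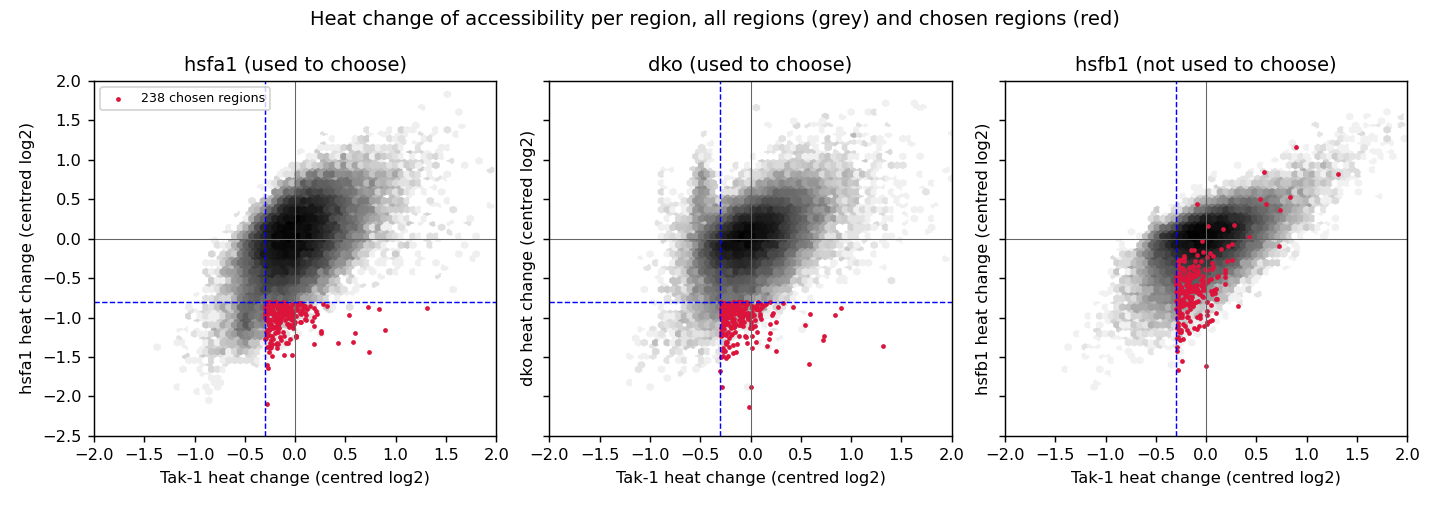
Centred log2 heat change per region in hsfa1, dko and hsfb1 (vertical axes) against that in Tak-1 (horizontal axes), with all 40873 regions as grey density on a log scale, the 238 regions in red and the limits of the choice as dashed lines. In hsfb1, which the choice did not use, 226 of the 238 red points lie below 0.

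The regions fell by a similar amount in both lines without HSFA1, by design of the choice. The centred log2 change had a median of -0.96 in hsfa1, with a range of -2.10 to -0.80, and of -0.96 in dko, with a range of -2.14 to -0.80. In Tak-1 the median was -0.16 and the range -0.30 to 1.31. Of the 238, 134 were above -1 in hsfa1 and 141 in dko, 87 were above it in both, and 1 was at or below -1.5 in both. In Tak-1, 188 of the 238 lay below 0 and 50 above it, 10 of these at 0.3 or higher. The group therefore held few regions that moved clearly in opposite directions with and without HSFA1.

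The hsfb1 knockout, whose HSFA1 gene was intact by its label, served as a check of the description "closed by heat without HSFA1", and for many members the data went against it. In hsfb1, 127 of the 238 regions fell with heat and 3 rose (edgeR, quasi-likelihood F test, Benjamini-Hochberg adjusted p over all regions under 0.05), beside a background of 8.79% of all regions called lower and 6.19% called higher. The called regions were 53.4% of the members in the lower direction and 1.26% in the higher. The median log2 change in hsfb1 was -0.72 over the members and 0.0032 over all regions. On the centred scale of the rule the members' median in hsfb1 was -0.65. There 68 of the 238 were at or below -0.8, beside 3.01% of all regions. In 199 members the hsfb1 value was at or above those of hsfa1 and dko, which the choice had set low. Both heated hsfb1 libraries lay below both control libraries in 209 of the 238 members, where 33% of all regions did. Loss of signal with heat was thus also measured with HSFA1 present, and the members are called here by the rule that chose them.

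The count in hsfb1 depended on single libraries. Leaving out hsfb1 control replicate 1 gave 106 and control replicate 2 gave 48. Leaving out the first hsfb1 heat library gave 59 and the second gave 33, while the median log2 change stayed between -0.81 and -0.56. The 3 regions that rose were called in each of these fits.

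**Figure D2:**
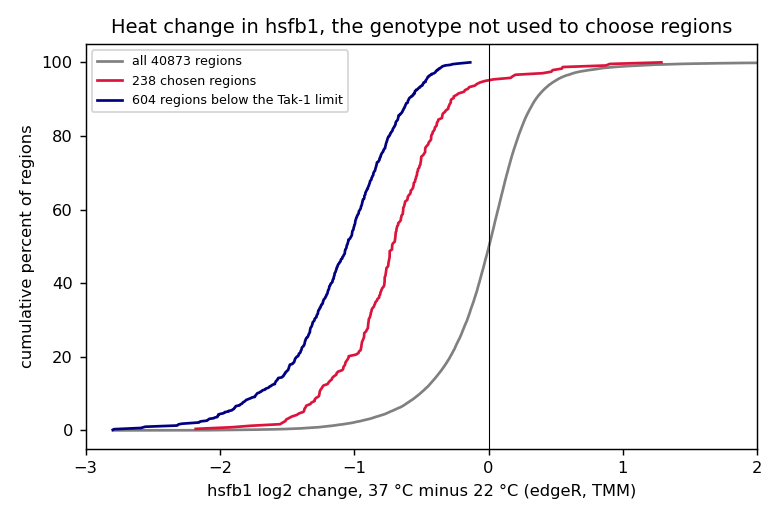
Cumulative percent of regions (vertical axis) by log2 heat change in hsfb1 fitted by edgeR (horizontal axis), for all regions, for the 238 chosen regions and for the 604 regions that met both mutant limits but fell below the Tak-1 limit. The chosen regions lie between the other curves, with medians of -0.72, -1.06 for the 604 and 0.0032 for all.

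The members belonged to a larger group of 842 regions that met the limits in hsfa1 and dko, of which the other 604 were below -0.3 in Tak-1. Of these 604, 547 were called lower with heat in hsfb1, which is 90.6%, beside 53.4% of the 238 and the background of 8.79%. The difference between these shares was not tested. Within the 842 regions, 40 had a centred change in hsfb1 at or above -0.3, and 35 of those were members. The count of regions at or above -0.3 in both lines with an intact HSFA1 gene was therefore 35 of 842. Over all regions, 82% were at or above -0.3 in hsfb1. Without Tak-1 control replicate 2, 147 of the 238 members were below the Tak-1 limit.

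The members were narrow regions of low signal. Their median width was 166 bp against 435 bp over all regions, and 228 of the 238 were narrower than that overall median. Their mean CPM over the 16 heat set libraries had a median of 3.89, with a range of 1.42 to 18.5, against 12.4 over all regions. Only 8 members were at or above the overall median, and 170 were among the lowest 25% of regions. Per kilobase of width the contrast was smaller, with a median mean CPM of 24.3 per kb against 29.5 per kb. The nearest other accessible region lay a median of 2578 bp from a member, against 705 bp over all regions. Of the 10 classes by mean CPM, the lowest held 80 members, 1.96% of its regions, the fifth class held 9 and the 3 highest classes held 0.

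The heat change of all regions also went with signal, in opposite directions in Tak-1 and in the mutants. In the lowest class by mean CPM Tak-1 had a median centred change of 0.059, while hsfa1 stood at -0.20, hsfb1 at -0.23 and dko at -0.21. In the highest class Tak-1 had -0.24, hsfa1 0.098, hsfb1 0.06 and dko -0.0026. The rule, with a lower limit for Tak-1 and upper limits for hsfa1 and dko, was met more often in the classes of low signal. The part of the trend of heat change with signal in the membership of the regions was not tested. When every library was corrected by a loess curve on signal before the rule was applied, an alternative added after the data were seen, 79 regions met the rule and 72 of them were members.

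Members were spread over the genome. Chromosomes 1 to 8 held 231 of them, from 19 on chromosome 6, 0.424% of its regions, to 38 on chromosome 1, 0.639%, and 36 on chromosome 5, 0.701%. The male sex chromosome V held 3 members among its 137 regions, 2.19%, and the female sex chromosome U 0 among 22. Unplaced scaffolds held 4 among 95, 4.21%, of which 2 lay on unplaced-scaffold_250. Chromosomes 1 to 8 together stood at 0.569%. All 3 members on V and 3 of the 4 on scaffolds were called lower with heat in hsfb1, beside 53.4% of all members and 8.79% of all regions. The share over all regions of V or of the scaffolds was not computed. No stretch held 3 members within 10000 bp of each other, and 6 pairs of members did. The closest pair was on chromosome 3 between 20651467 and 20651927.

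The members' levels in single libraries showed where the difference between Tak-1 and the mutants lay. The median CPM over the 238 regions, for replicates 1 and 2 in this order, was 4.25 and 2.32 in Tak-1 at 22 °C and 3.75 and 3.30 after heat. For hsfa1 it was 5.51 and 5.52 before and 2.46 and 2.51 after. The hsfb1 libraries stood at 5.07 and 6.36 before and at 3.73 and 3.32 after heat. The dko libraries went from 4.94 and 4.42 to 1.78 and 2.12. Heated Tak-1 and heated hsfb1 thus lay at like levels, heated hsfa1 and dko below them, and the Tak-1 controls below the controls of each mutant.

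In 228 of the 238 members the Tak-1 control mean was below all 3 mutant control means, which held for 49.7% of all regions, and in 226 the heated Tak-1 mean was above the heated means of hsfa1 and dko, which held for 35.2%. As log2 differences of mean CPM with 0.5 added, the members' medians at 22 °C were 0.62 for hsfa1 minus Tak-1, 0.65 for hsfb1 minus Tak-1 and 0.41 for dko minus Tak-1, beside 0.15, 0.24 and 0.14 over all regions. After heat they were -0.37, 0.008 and -0.64 in the same order, beside 0.006, 0.0079 and -0.028. These differences use the libraries that chose the regions.

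**Figure D3:**
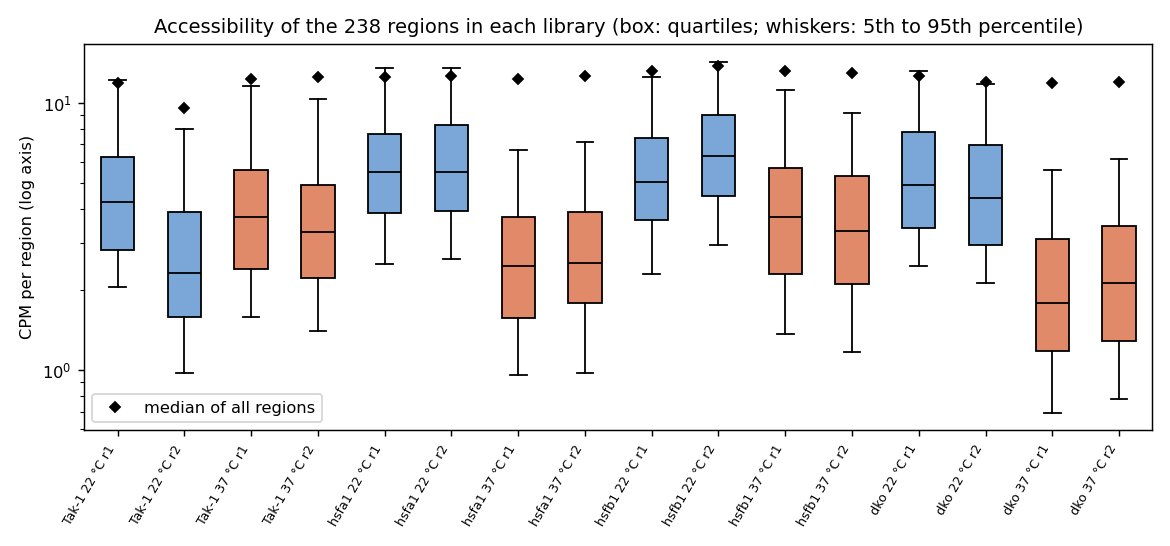
CPM of the 238 regions on a log axis in each of the 16 heat set libraries, with 22 °C in blue, 37 °C in orange and the median of all regions as a diamond. Tak-1 control replicate 2 has the lowest median of the 8 control libraries, 2.32, and the dko heat libraries the lowest of the heated ones, 1.78 and 2.12.

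Tak-1 control replicate 2 was below replicate 1 in 236 of the 238 members and in 75.1% of all regions. Taken against control replicate 1 alone, the median centred change of the members was -0.24 with Tak-1 heat replicate 1 and -0.44 with heat replicate 2. Against control replicate 2 alone it was 0.24 and 0.022. The sign of the Tak-1 change over these regions therefore differed with the control library. In hsfa1 the same 4 pairings gave -1.04 to -0.97, in dko -1.14 to -0.85 and in hsfb1 -0.84 to -0.42.

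The number of regions that met the rule was 94 when Tak-1 control replicate 2 was left out and 428 when its replicate 1 was. It was 174 and 345 without Tak-1 heat replicates 1 and 2, and 185 to 300 when any of the hsfa1 or dko libraries was left out. Of the 94 regions, 91 were members, and in hsfb1 39 of the 94 were called lower and 3 higher, with a median log2 change of -0.59. The rule was met by 26 members whichever of the 12 libraries was left out, and by 18 of these with the loess correction as well. In hsfb1, 11 of the 26 and 8 of the 18 were called lower, and 2 and 1 were called higher.

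The ABA set asked whether unheated Tak-1 also had less signal than the mutants in libraries that played no part in the choice. Of the 238 members, 225 overlapped a region of the 53390 in that table by at least 50% of the shorter. There the median CPM over the matched members was 4.87 to 5.40 in the 4 Tak-1 libraries, 4.97 to 5.50 in hsfa1, 4.79 to 5.36 in hsfb1 and 4.55 to 4.85 in dko. The hsfa1 and hsfb1 ranges overlapped that of Tak-1, and the dko range lay below it.

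Region by region, hsfa1 minus Tak-1 had a median log2 difference of 0.00088 over the matched members and 0.006 over all regions. By edgeR 0 of the 225 were called higher and 0 lower, beside 0.155% and 0.197% of all regions. DESeq2 called 0 as well, and at an unadjusted p under 0.05 there were 15 members, 6.67%, against 11.7% of all regions. The edgeR differences ran from -0.35 to 0.60 over the 225 matched members. At 22 °C in the heat set, the log2 differences of mean CPM with 0.5 added ran from 0.094 to 1.07 over the 238. The measures differ, and the latter libraries were used in the choice.

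For dko minus Tak-1 the median was -0.096, beside 0.0045 over all regions. By edgeR 12 members were higher and 20 lower, 5.33% and 8.89%, beside 8.39% and 9.25% of all regions. For hsfb1 minus Tak-1 the median was -0.049, beside 0.0016, with 11 members higher and 6 lower, 4.89% and 2.67%, beside 6.67% and 6.09%. The share of members lower in dko was near the background, and the other shares were below it. Members had a median mean count of 135 in the heat set, against 450 over all regions. The part of low counts in these shares was not tested. All 3 comparisons share the Tak-1 libraries. Counting regions in which the 4 libraries of a mutant did not overlap those of Tak-1, hsfa1 lay above in 9 members and below in 4, beside 6.06% and 4% of all regions. The hsfb1 libraries lay above in 11 and below in 15, beside 9.06% and 8.32%, and the dko libraries above in 14 and below in 42, beside 10.7% and 14.2%. The share of members with dko below, 18.7%, was above that background and the others, at most 6.67%, were below theirs. It was not particular to the members. Of the 604 regions below the Tak-1 limit 577 had a match, and dko lay below in 103 of these, 17.9%.

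**Figure D4:**
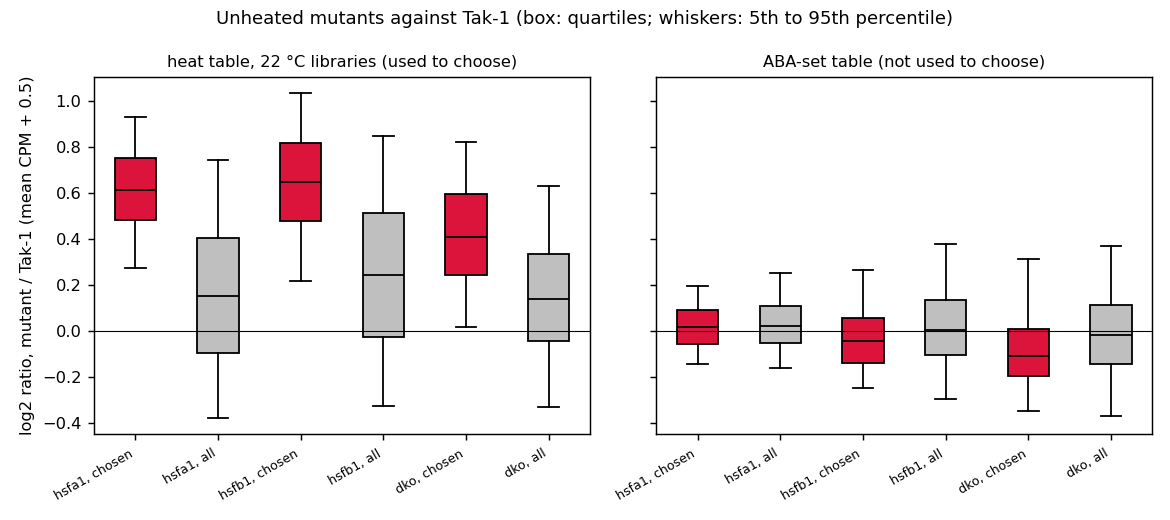
Log2 ratio of unheated mutant to Tak-1, from mean CPM with 0.5 added, for the chosen regions (red) and all regions (grey) in the 22 °C libraries of the heat set (left) and in the ABA set (right). The chosen regions have medians of 0.62, 0.65 and 0.41 for hsfa1, hsfb1 and dko on the left and lie around 0 on the right.

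The member with the lowest mean of the hsfa1 and dko differences from Tak-1 in the ABA set is given first. The region on chromosome 3 from 7667993 to 7668160 was low in lines with the hsfb1 knockout. Its CPM over the 4 libraries of a genotype was 3.95 to 5.25 (median 4.62) in Tak-1, 4.56 to 5.40 (median 5.10) in hsfa1, 0.591 to 1.18 (median 0.937) in hsfb1 and 2.16 to 2.88 (median 2.80) in dko. The log2 difference from Tak-1 was -2.34 in hsfb1 (SE 0.16, edgeR adjusted p = 1.46e-08) and -0.77 in dko (SE 0.14, adjusted p = 0.0015), and the groups did not overlap. In the heat set the same region held 1.69 and 1.17 CPM in hsfb1 controls against 5.26 and 3.34 in Tak-1 controls. The hsfa1 controls held 7.25 and 7.07 and the dko controls 3.20 and 1.89. Its low level in hsfb1 was thus seen in both sets.

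Members with the highest mean difference of hsfa1 and dko from Tak-1 are given next. The region on chromosome 5 from 4579786 to 4579898 held 1.34 to 1.86 CPM (median 1.65) in Tak-1 and 2.76 to 3.15 (median 2.93) in dko, a log2 difference of 0.89 (SE 0.15, edgeR adjusted p = 0.00104), and was also higher in hsfb1 by 0.65 (SE 0.16, adjusted p = 0.0113). On chromosome 6 from 15379531 to 15379663 dko was higher by 0.44 (adjusted p = 0.0463), and hsfa1 by 0.60 without passing the threshold (adjusted p = 0.0986), the lowest adjusted p of any member for hsfa1. On chromosome 7 from 20829704 to 20829782 the differences of 0.33 in hsfa1, 0.51 in dko and 0.49 in hsfb1 did not pass. A member on chromosome 1 (25111927 to 25112193) and one on chromosome 2 (13832246 to 13832345) had the next lowest mean of both differences, each with -0.33 for hsfa1 and -0.32 for dko, none past the threshold. Ranked on dko alone, other members were lower, among the 20 called.

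Treatment in the ABA set was called in 24 of all 53390 regions, so a count of 0 among the members says little about them. By edgeR the contrast of the columns named ABA minus those named CK, over all genotypes, called 0 of the 225 higher and 0 lower, beside 0.00375% and 0.0412% of all regions, together 0.045%, and DESeq2 called 0. Within single genotypes 0 members were called, beside 0.00187% of all regions in hsfa1, all of them lower, and 0% in each of the other genotypes. At an unadjusted p under 0.05 there were 17, 7.56% of the members against 5.49% of all regions, and the lowest adjusted p was 0.181.

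A small subset of the members moved in opposite directions with and without HSFA1. In 7 members the centred change was 0.3 or higher in both Tak-1 and hsfb1 and, by the choice, at or below -0.8 in hsfa1 and dko. These 7, singled out after their values were seen and partly by their hsfb1 values, were wider than most members, at 215 to 570 bp with a median of 302 bp. The 3 of them called higher with heat in hsfb1 are described first, as regions A, B and C.

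Region A lay on chromosome 3 from 16267398 to 16267613. In hsfb1 it held 3.18 and 2.98 CPM at 22 °C and 7.28 and 7.46 CPM after heat, a log2 change of 1.29 (SE 0.24, edgeR adjusted p = 0.000482). In Tak-1 it went from 2.85 and 1.33 CPM to 4.71 and 4.84 CPM. In hsfa1 it went from 3.67 and 3.15 CPM to 1.07 and 1.49 CPM, and in dko from 2.69 and 1.89 CPM to 0.934 and 1.03 CPM. Heated and control libraries did not overlap in any genotype, with heat on the upper side in Tak-1 and hsfb1 and on the lower side in hsfa1 and dko. The Tak-1, hsfa1 and dko libraries were used in the choice. In hsfb1, 25.6% of all regions had both heated libraries above both control libraries. Region A did not meet the rule under every omission of 1 library, nor did regions D and F below.

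Region B lay on chromosome 4 from 873086 to 873435. In hsfb1 it rose from 5.34 and 4.69 CPM to 9.38 and 9.04 CPM, a log2 change of 0.90 (SE 0.20, edgeR adjusted p = 0.00211). Tak-1 held 5.05 and 3.54 CPM at 22 °C and 7.83 and 6.81 CPM after heat. The lines without HSFA1 went from 7.49 and 5.45 CPM to 2.69 and 1.98 CPM in hsfa1 and from 4.80 and 5.30 CPM to 1.24 and 1.37 CPM in dko. Again heated and control libraries of a genotype did not overlap, with the same limits as for region A. Region B met the rule whichever library was left out and with the loess correction. In the unheated ABA set the matched region was narrower, from 873174 to 873344, so its CPM is not on the scale of the heat set values. All 16 libraries held 3.63 to 5.34 CPM there. The edgeR log2 differences from Tak-1 were 0.042 in hsfa1, -0.046 in dko and 0.0092 in hsfb1, none past the threshold (adjusted p from 0.831 to 0.972).

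Region C lay on chromosome 3 from 8083063 to 8083633 and was the member with the highest centred change in Tak-1, 1.31. In hsfb1 it rose from 6.49 and 7.76 CPM to 11.2 and 14.2 CPM, a log2 change of 0.87 (SE 0.17, edgeR adjusted p = 0.000656). Tak-1 went from 5.05 and 3.76 CPM to 11.6 and 14.1 CPM, hsfa1 from 5.75 and 5.27 CPM to 2.78 and 2.81 CPM and dko from 5.06 and 5.33 CPM to 1.69 and 1.65 CPM. The heated lines with HSFA1 were thus at 11.2 CPM or higher and those without it at 2.81 CPM or lower. Region C met the rule whichever library was left out, though not with the loess correction.

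The other 4 of the 7, whose direction in hsfb1 was fixed by how they were picked, did not pass the threshold there. On chromosome 2 from 3263491 to 3263907 the log2 change in hsfb1 was 0.55 (adjusted p = 0.07), in the member on chromosome 1 from 25111927 to 25112193 0.55 (adjusted p = 0.0637), in that on chromosome 6 from 7149542 to 7149807 0.48 (adjusted p = 0.146) and in that on chromosome 2 from 6632367 to 6632669 0.40 (adjusted p = 0.221), all by edgeR. With loess offsets all 4 passed, with adjusted p from 0.0146 to 0.0405, and 7 members in all were called higher. Their centred changes in Tak-1 were 0.54 to 0.83. In the ABA set 4 of the 7 had a matched region, and region A was among those without one.

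**Figure D5:**
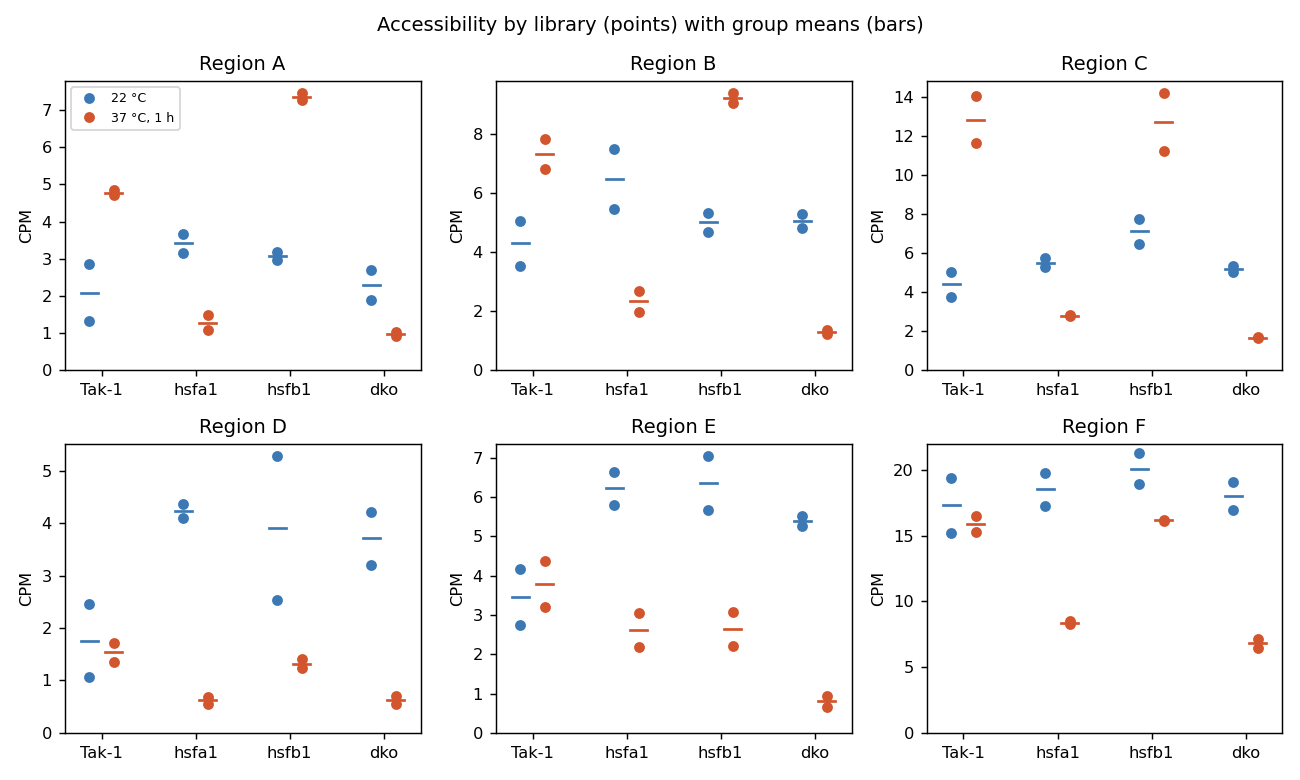
CPM of 6 of the chosen regions, A to F, in each of the 16 heat set libraries, with 22 °C in blue and 37 °C in orange, 2 points per group. A, B and C go up with heat in Tak-1 and hsfb1 and down in hsfa1 and dko, whereas D and E go down in all 3 mutants.

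Of the 6 members with the lowest mean centred change in hsfa1 and dko, 5 fell in hsfb1 and region B rose. Region D, on chromosome 1 from 26848102 to 26848220, had the lowest centred change in hsfa1, -2.10. It held 4.10 and 4.37 CPM at 22 °C and 0.550 and 0.689 CPM after heat in hsfa1, and 4.22 and 3.21 CPM against 0.542 and 0.697 CPM in dko. In Tak-1 it went from 2.45 and 1.07 CPM to 1.71 and 1.36 CPM, so the Tak-1 control libraries lay on either side of the heated ones. In hsfb1 it fell from 2.53 and 5.28 CPM to 1.40 and 1.24 CPM, a log2 change of -1.51 (SE 0.33, edgeR adjusted p = 0.00192). Without hsfb1 control replicate 2 the adjusted p was 0.115, and without hsfb1 heat replicate 2 it was 0.0577.

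Region E, on chromosome 4 from 6414710 to 6414908, had the lowest centred change in dko, -2.14. In dko it went from 5.27 and 5.51 CPM to 0.663 and 0.949 CPM, and in hsfa1 from 6.64 and 5.81 CPM to 3.04 and 2.18 CPM. Tak-1 held 4.18 and 2.75 CPM at 22 °C and 4.36 and 3.20 CPM after heat, with overlapping groups. In hsfb1 it fell from 5.67 and 7.04 CPM to 3.07 CPM or lower in both heated libraries, a log2 change of -1.24 (SE 0.24, edgeR adjusted p = 0.000698), and the adjusted p was 0.0573 without hsfb1 heat replicate 2. It met the rule whichever library was left out and with the loess correction.

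Other members with low values in both mutants behaved likewise in hsfb1. One on chromosome 2 (14771454 to 14771666), with centred changes of -1.37 in hsfa1 and -1.51 in dko, fell by 1.26 on the log2 scale in hsfb1 (SE 0.22, edgeR adjusted p = 0.000158). A narrower one on chromosome 2 (25470658 to 25470749), at -1.60 in hsfa1 and -1.38 in dko, had a log2 change of -0.97 in hsfb1 (SE 0.25, adjusted p = 0.00705), which no longer passed with loess offsets (adjusted p = 0.0521), nor without hsfb1 control replicate 2 or heat replicate 2.

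The 3 members with the lowest log2 changes in hsfb1 were on chromosomes 5 and 8. That on chromosome 5 from 16069148 to 16069266 fell in hsfb1 from 2.57 and 3.79 CPM to 0.665 and 0.687 CPM, a log2 change of -2.18 (SE 0.33, edgeR adjusted p = 3.23e-05). In dko it went from 3.87 and 4.13 CPM to 0.663 and 0.725 CPM, and in Tak-1 from 1.89 and 0.996 CPM to 2.03 and 1.22 CPM. On chromosome 5 from 3055378 to 3055659 hsfb1 went from 5.95 and 7.17 CPM to 1.48 and 1.89 CPM, a log2 change of -1.92 (SE 0.28, adjusted p = 1.26e-05), and for the member of chromosome 8 (11365683 to 11365805) the change was -1.77 (SE 0.30, adjusted p = 0.000111). In the first of them the heated hsfb1 libraries, with an intact HSFA1 gene, lay at the level of the heated dko libraries and below both heated Tak-1 libraries.

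The members with the highest signal were less alike in hsfb1. Region F, on chromosome 2 from 16539800 to 16540526, held 19.8 and 17.3 CPM at 22 °C and 8.51 and 8.27 CPM after heat in hsfa1, and 19.1 and 17.0 CPM against 6.48 and 7.14 CPM in dko. In Tak-1 it held 19.4 and 15.2 CPM and then 16.5 and 15.3 CPM, and in hsfb1 18.9 and 21.3 CPM and then 16.1 and 16.2 CPM. The log2 change in hsfb1 was -0.28 (SE 0.12, edgeR adjusted p = 0.12). Heated hsfb1 and Tak-1 libraries thus stayed at 15.3 CPM or higher and heated hsfa1 and dko at 8.51 CPM or lower.

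Among the others of high signal, the region on chromosome 1 from 12861762 to 12862232 had a log2 change in hsfb1 of -0.28 (edgeR adjusted p = 0.192). One on chromosome 5 (18212275 to 18212861) fell by 0.81 on the log2 scale (SE 0.13, adjusted p = 7.64e-05). A region on unplaced-scaffold_250 from 19126 to 19686 had a value of -0.74 (SE 0.19, adjusted p = 0.00809), and DESeq2 gave an adjusted p of 0.088. It was also not called by edgeR without hsfb1 control replicate 2 or without either hsfb1 heat library. In the ABA set the scaffold region also held more signal in lines with the hsfb1 knockout, at 16.1 to 19.9 CPM in hsfb1 and 16.6 to 19.7 CPM in dko against 12.5 to 14.2 CPM in Tak-1 and 11.7 to 13.3 CPM in hsfa1. The differences from Tak-1 were 0.44 (adjusted p = 0.00197) and 0.42 (adjusted p = 0.00225) in hsfb1 and dko on the log2 scale. The heat set controls did not show this order for dko. There dko held 21.8 and 15.9 CPM and hsfa1 24.9 and 27.7 CPM, with Tak-1 at 21.8 and 8.99 CPM and hsfb1 at 26.6 and 33.9 CPM. Over all members the hsfb1 result varied little with signal. With the members in 3 classes by mean CPM, 43 of the 80 lowest, 40 of the 79 middle and 44 of the 79 highest were called lower.

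The limits cut through a continuous spread of values. The member nearest the hsfa1 limit, on chromosome 6 from 15379531 to 15379663, had a centred change of -0.800727 and the nearest region outside it, on chromosome 1 from 28970887 to 28971370, of -0.799627. For dko the values were -0.800603 inside, on chromosome 2 (28236129 to 28236269), and -0.799651 outside, on chromosome 1 (30536011 to 30536293). For Tak-1 they were -0.299755 inside, on chromosome 8 (18094382 to 18094551), and -0.301537 outside, on chromosome 7 (7286206 to 7286373). Within 0.1 of a limit, with the other limits met, 75 regions lay inside and 71 outside for hsfa1, 76 and 87 for dko and 92 and 113 for Tak-1.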

How the data were processed

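Sorted nuclei were profiled by ATAC-seq, and the deposited tables hold counts, whole numbers of reads per accessible region and library, not normalized by the authors. The submitters' processing notes name Bowtie2 2.4.4, MACS2 2.2.7.1 and Subread 2.0.6 with featureCounts, besides fastp 0.24.0, FastQC 0.11.9, deepTools, bedtools and SAMtools, without their settings. Whether reads were shifted for the Tn5 insertion or duplicates removed was not given in the sources used here.

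From the heat table, CPM and the centred changes were computed and the regions chosen. Tests used edgeR 4.0.16 in R 4.3.3 on the counts (quasi-likelihood, TMM scaling, fitted on whole tables, Benjamini-Hochberg adjustment over all regions, threshold 0.05), with 1 fit for the 16 heat libraries and 1 for the 16 ABA libraries. The main fits included a filter at low counts. DESeq2 1.42.0, other scalings, loess offsets, no such filter, leaving out each library and a replicate block were alternatives. The scripts were tested on simulated data. Regions of both tables were matched where they shared 50% of the shorter.

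Named regions, all with a mean of at least 50 counts, were the 6 members with the lowest mean change in hsfa1 and dko, the 4 others of highest CPM, the 3 lowest and 3 highest in hsfb1, the 3 highest and 3 lowest for hsfa1 and dko against Tak-1 in the ABA set, and those at the limits. Regions chosen after their values were seen are stated as such. The members and lists were chosen with earlier results of these data known. The heat set has 2 libraries per group, and mean counts of 48.4 to 635 limit the precision for single members.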

Additional observations from a re-analysis of the deposited data

How the results depend on the processing

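The number of regions meeting the rule was 238. It was 57 with 2 CPM added in place of 0.5, 406 without centring, 79 with loess offsets (added after the data were seen) and 94 to 428 when 1 library was left out. The 127 members called lower in hsfb1 became 121 with DESeq2, 98 with total count scaling, 89 with loess offsets and 33 to 106 with 1 hsfb1 library left out, the 3 called higher became 7 with loess offsets and stayed 3 with libraries left out, and the median log2 change of -0.72 was -0.81 to -0.56 and -0.52 with loess offsets. With 1 library of the ABA set left out, members called in dko were 7 to 9 higher and 6 to 21 lower, against 12 and 20, those in hsfb1 4 to 11 higher and 3 to 9 lower, against 11 and 6, those in hsfa1 0 and 0, and those of the treatment contrast 0 to 1. The libraries, by sample title, whose omission moved a count by over 1.5 times were Tak-1 ABA replicate 1 (7 higher in dko, 6 higher in hsfb1), Tak-1 ABA replicate 2 (7 lower in dko, 7 higher and 3 lower in hsfb1), Tak-1 mock replicate 2 (6 lower in dko, 3 lower in hsfb1), dko ABA replicate 1, dko mock replicate 1 and dko mock replicate 2 (11 lower in dko each), hsfb1 mock replicate 1 (4 higher in hsfb1) and hsfb1 ABA replicate 2 (1 in the treatment contrast). With loess offsets 15 members were lower in hsfb1. The cause was not tested.

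Deviations of same-numbered libraries from group means correlated above 0.1 in 6 of 28 group pairs of the heat set. In the ABA set they did so in 15 of 28. The correlations ran from -0.45 to 0.31 and from -0.33 to 0.44, so whether replicate numbers pair the libraries was not settled. With the replicate block 117 members were lower in hsfb1 with heat, and in the ABA set 15 were higher and 25 lower in dko, 12 higher and 9 lower in hsfb1 and 0 in hsfa1. Of the values for single named regions 188 kept direction and call, 4 gained the call, 21 lost it and 3 changed sign, none of these called in either fit. On chromosome 3 from 7667993 to 7668160 the log2 change of -0.34 was 0.019 without hsfb1 control replicate 1 and 0.002 without hsfb1 heat replicate 2, in a range of -0.69 to 0.019 with 1 library left out, and on chromosome 5 from 4579786 to 4579898 that of -0.59 was 0.0197 without hsfb1 control replicate 2, in a range of -1.02 to 0.0197. The low-count filter removed 0 regions. The smallest change detectable at mean counts of 48.4 to 635 per library was not measured.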
